A study of Drosophila melanogaster with 6 samples.

Results

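The mitochondrial ribosomal protein genes described here are those whose symbol in the deposited table starts with mRpL (large subunit) or mRpS (small subunit) followed by a number. There were 73 of them among 17208 genes in the table, 47 of the large and 26 of the small subunit, and all 73 passed the filter on low counts that left 11542 genes for testing. RNA came from whole *Drosophila melanogaster* embryos, raised on grape agar at 25 °C and taken at 16-20 h of development. Embryos of the allele pair ft fd5-5/ft X13, which the study describes as null for *ft*, the gene of the giant cadherin Fat (here ft null, 4 libraries), were compared with w1118 embryos, the wild type of the study, whose *white* eye colour gene is disrupted (2 libraries). Nothing in the labels says whether libraries came from separate collections, and the p-values therefore cover the spread of these libraries, part or all of which may be technical. Strain background and the *ft* alleles vary together, and their effects cannot be told apart.

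The mitochondrial ribosome is built from 2 RNAs encoded in the mitochondrial genome and many proteins encoded in the nucleus, made in the cytosol and imported. It translates only the mitochondrially encoded subunits of the respiratory chain and ATP synthase, and those complexes cannot be assembled without it. Its large subunit joins amino acids and holds the tunnel through which the new chain leaves, and its small subunit reads the messenger RNA. In *Drosophila*, loss of single proteins of this ribosome gives weak, slow-growing or lethal larvae.

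Library totals lay between 21261928 and 29151981 estimated counts. The single members held between 48 and 4752 counts in a library. Levels are given as CPM, counts scaled to the effective library size. *ft* stood at 28.6 to 32.2 CPM in ft null and at 43.2 and 46.3 CPM in w1118, which is -0.57 on the log2 scale (SE 0.106; adjusted p from edgeR 0.0249). The groups did not overlap, and the *ft* call was lost without any single library other than ft null replicate 1 (edgeR adjusted p up to 0.127). *w* stood at 0.384 to 1.14 CPM in ft null and at 0.0975 and 0 CPM in w1118; the groups did not overlap, but *w* did not pass the test (edgeR adjusted p = 0.0671). Of the tissue markers, the neuronal gene *elav* stood at 89.0 to 101 CPM and the germline gene *vas* at 4.13 to 5.39 CPM. Several markers differed between w1118 replicates 1 and 2, but others of the same tissues did not. The muscle gene *Mhc* stood at 5921 and 10626 CPM and *sls* at 1320 and 1522 CPM. *Mlc2* stood at 7216 and 7276 CPM and *Act57B* at 18292 and 17862 CPM. The neuronal genes *brp*, *nSyb* and *Syt1* stood at 153 and 277, 160 and 233, and 174 and 248 CPM, but *elav* at 95.3 and 89.0 CPM. *Col4a1* of hemocytes stood at 2923 and 5788 CPM, but *srp* at 111 and 118 CPM. The maternal genes *bcd* (4.68 and 0.550 CPM) and *osk* (1.07 and 0.183 CPM) were lower in replicate 2, and *nos* (2.21 and 3.62 CPM) was higher. Between genotypes, the tracheal gene *btl* and the cuticle genes *Cpr97Eb* and *TwdlE* rose in ft null (edgeR adjusted p = 0.016, 0.00561 and 0.0354), while the tracheal gene *trh* and the epidermal gene *grh* had log2 fold changes of -0.04 and -0.13 and were not called. The part of these tissues in the values below was not tested. In whole embryos, fewer cells of a type and less RNA per cell cannot be told apart.

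Levels differed little over the middle 50% of the 73 genes and widely between the extremes. Levels between genes are compared here as CPM per kb of the longest annotated transcript, averaged over the 6 libraries. The median was 45.8 CPM per kb, the middle 50% of the genes lay between 32.5 and 52.9, a ratio of 1.62, and the extremes of 10.6 and 128 CPM per kb differed 12.1-fold. The median of all genes tested was 11.3 CPM per kb. The cytosolic ribosomal protein genes had a median of 256 CPM per kb, 5.58 times that of the mitochondrial set. Together the 73 genes took 0.241% to 0.344% of the estimated counts of a library.

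The highest level belonged to *mRpL28* (2L from 4973976 to 4975316, dm6), a counterpart of bacterial L28, at 128 CPM per kb. *mRpL45*, whose mammalian counterpart ties the ribosome to the inner membrane, followed at 92.3 CPM per kb, then *mRpS5* at 89.4 and *mRpL22*, which lines the exit tunnel, at 77.4. *mRpL28* stood at 145, 166, 151 and 147 CPM in ft null and 154 and 138 CPM in w1118, or 128 ± 8.10 CPM per kb (SD, n = 6), against 92.3 ± 5.02 for *mRpL45*. The levels of *mRpL45* and *mRpS5* (SD 9.84) did not differ beyond their spread. The order below *mRpL28* depended on the length used. Per kb of coding length *mRpL28* was again highest (166 CPM per kb). *mRpL53* (120) then lay above *mRpL45* (108), *mRpL22* (108) and *mRpS5* (104). The lowest levels were those of *mRpS21* (10.6 CPM per kb), *mRpL33* (15.6), *mRpL34* (17.0) and *mRpL11* (18.3). *mRpS21*, *mRpL33* and *mRpL34* encode very small ribosomal proteins and have transcripts of 475, 349 and 327 bases. *mRpL11*, a protein of the stalk base, has a transcript of 734 bases. Counts were divided by the full annotated length, with no correction for very short transcripts. Per kb of coding length, *mRpS21* (19.3), *mRpL34* (22.9) and *mRpL11* (22.9) were again lowest, and *mRpL41* (24.7) lay below *mRpL33* (28.4). *mRpS21* overlaps *CG8870* over 48.0% of its exon bases. The library kit does not mark strand, so reads that lie within shared bases cannot be assigned to a gene by strand.

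**Figure D1:**
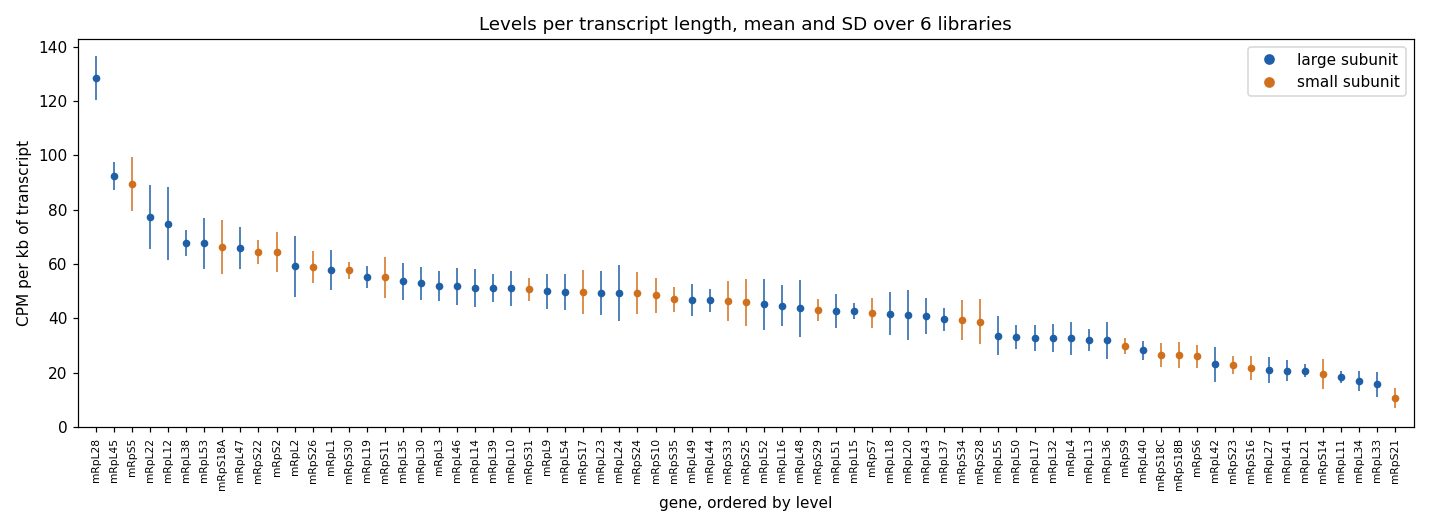
Mean level of each of the 73 genes in CPM per kb of transcript, ordered from high to low, with bars for the SD over 6 libraries and colour for the subunit. *mRpL28* stands alone at 128 CPM per kb, the middle 50% of genes lie between 32.5 and 52.9, and large and small subunit genes are mixed along the order.

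The subunits did not stand apart in level. Median levels per kb of the large subunit genes were 0.979 to 1.11 times those of the small subunit genes in the ft null libraries, and 1.02 and 0.987 times in w1118 replicates 1 and 2. The ratio was thus near 1 in all 6 libraries, in both genotypes. *mRpS18A* and *mRpS30* are named for the small subunit, but their human counterparts sit in the large one. With these genes moved to the large subunit, the ratios were 1.03 to 1.15. No test was made of the subunits against each other.

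Between genotypes, none of the 73 genes passed the test. In edgeR's quasi-likelihood test, 0 members were called higher and 0 lower in ft null, against 4.3% of all genes called (2.15% higher and 2.15% lower), and the smallest adjusted p was 0.0741. At an unadjusted p under 0.05, 9 of the 73 genes differed, against 20.1% of all genes. Of these, 8 were higher (9.92% of all genes) and 1 was lower (1.37% of members, against 10.2% of all genes). DESeq2 called 2 of the 73, *mRpL24* higher and *mRpL48* lower, against 7.8% of the genes to which it gave an adjusted p, and limma voom called 0. At an unadjusted p under 0.05, DESeq2 had 9 members higher (9.65% of all genes) and 1 lower (8.77%). Of the 73 intervals at 95%, 69 lay wholly inside a 2-fold change in either direction and 40 inside a 1.5-fold change.

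As a list, the genes leaned slightly upward. The log2 fold change was above 0 for 67 of the 73 genes, against 51.9% of all genes tested, with a median of 0.16 against 0.01. The large subunit had 46 of 47 genes above 0 and a median of 0.16, and the small subunit 21 of 26 and a median of 0.18. The middle 50% of members lay between 0.09 and 0.30, and the extremes were -0.55 for *mRpL48* and 0.66 for *mRpS14*. The 6 genes below 0 were *mRpL48* and, in the small subunit, *mRpS5* (-0.19), *mRpS9* (-0.09), *mRpS30* (-0.06), *mRpS26* (-0.03) and *mRpS33* (-0.02).

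The lean rested on 1 control library. Each gene was centred on its mean log2 CPM over the 6 libraries, and the median of the 73 deviations was 0.05, 0.12, 0.09 and 0.01 in ft null replicates 1 to 4, 0.12 in w1118 replicate 1 and -0.41 in w1118 replicate 2. The list was low in that library and near its mean in the other 5. All 73 genes were lower in w1118 replicate 2 than in w1118 replicate 1, against 51.6% of all genes tested, and 70 of the 73 were lower there than in all 4 ft null libraries, against 32.6%. The exceptions were *mRpL48*, *mRpS5* and *mRpS30*. The medians in w1118 replicate 2 were -0.39 for the large and -0.43 for the small subunit, so both subunits were low together.

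**Figure D2:**
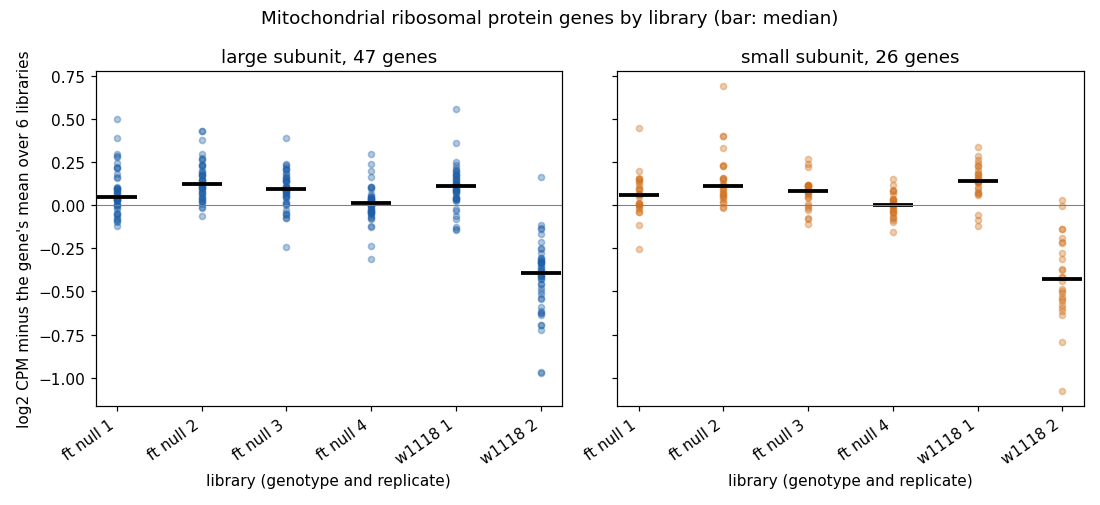
Log2 CPM of each gene minus its own mean over the 6 libraries, by library, with the large subunit on the left and the small on the right; points are genes and black bars are medians. Both subunits lie near 0 in 5 libraries and drop to medians of -0.39 and -0.43 in w1118 replicate 2.

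Without w1118 replicate 2, the lean was gone. The median log2 fold change of the 73 genes was -0.05, and 26 of 73 genes were above 0, against 50.7% of all genes. At an unadjusted p under 0.05, 1 member was higher (*mRpL24*, against 8.92% of all genes) and 2 were lower (*mRpL48* and *mRpS33*, against 6.9%). Without w1118 replicate 1, the median was 0.49, 70 of 73 were above 0, 54 of 73 were higher and 0 lower at an unadjusted p under 0.05 (11.5% and 9.63% of all genes), and 1, *mRpL24*, was called (1.74% of all genes). A fit with 1 control assumes that this control varies like the other libraries. Of the 67 genes above 0 in the full comparison, 41 were below 0 without w1118 replicate 2 and 26 stayed above 0 against either control.

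**Figure D3:**
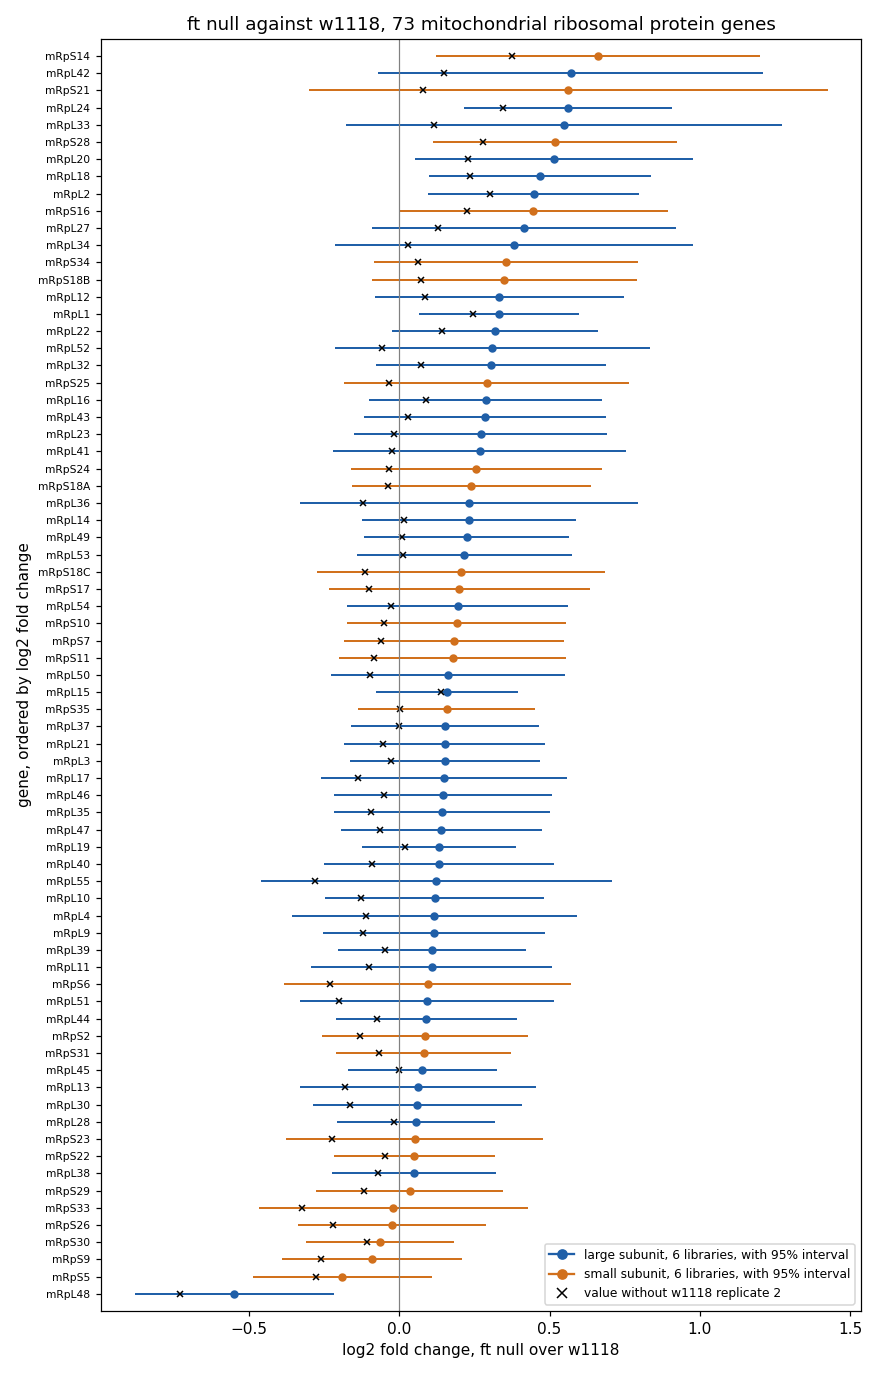
Log2 fold change of ft null over w1118 for the 73 genes, with 95% intervals from edgeR's fit (circles and lines, coloured by subunit) and the value without w1118 replicate 2 (crosses). The circles lie mostly above 0 with a median of 0.16 and the crosses scatter about 0 with a median of -0.05; *mRpL48*, at the bottom, is the gene whose value stays farthest below 0.

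The shortfall in w1118 replicate 2 went with transcript length and, among the 73 genes, about as closely with level. These genes are short, with transcripts of 327 to 2078 bases and a median of 783, against 1931.5 bases over all genes tested, and 61 of the 73 fall in the shortest of 4 length classes of equal size (up to 1189 bases). The median difference between the control libraries, replicate 2 minus replicate 1 in log2 CPM, was -0.55 for these 61 genes and -0.32 for the 11 in the next class. Among other genes it was -0.35 in the shortest class, -0.12 in the second, 0.04 in the third and 0.24 in the longest. Within the 73 genes, the difference had a Spearman rho of 0.84 with length and 0.82 with level (CPM), and level and length had a rho of 0.82 with each other, so the 2 cannot be told apart here. These are descriptions across genes, which share both libraries.

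**Figure D4:**
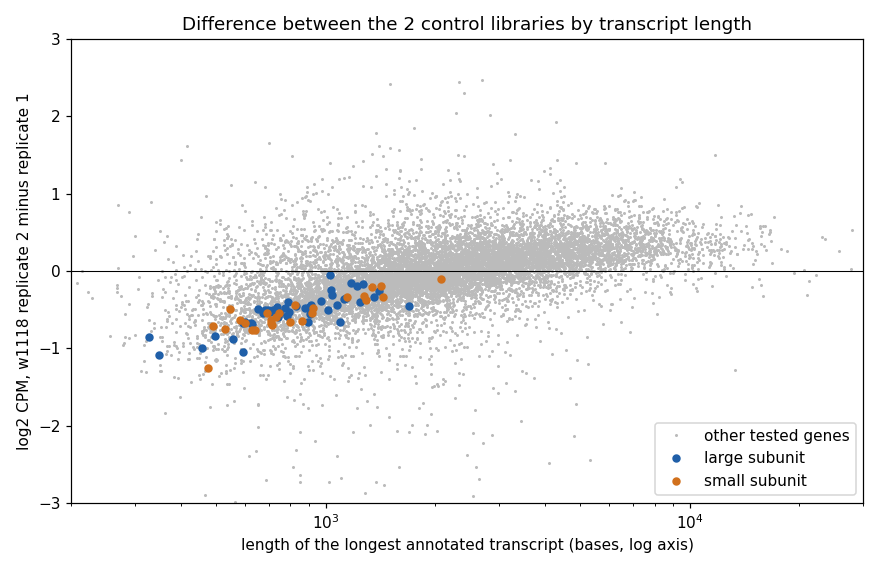
Difference in log2 CPM between the control libraries (w1118 replicate 2 minus replicate 1) against transcript length on a log axis, for the 73 genes (coloured) and other tested genes (grey; 32 genes beyond the axes are not drawn). Short genes lie mostly below 0 and long genes mostly above it, and the 73 genes lie on the short side with a median of -0.53.

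*mRpS21*, a short gene, stood at 5.36 CPM in w1118 replicate 1 and 2.20 CPM in replicate 2, or 165 and 48 counts. *mRpS30*, with the longest transcript, stood at 128 and 119 CPM. Other transcripts were low in the same library. Together the mitochondrially encoded protein genes took 0.0143% of its counts against 0.0380% to 0.0465% in the other 5 libraries. Of the 8 tested, 5 were lowest there, among them *mt:CoII* at 24.9 CPM against 162 to 221 CPM, whereas *mt:Cyt-b* at 6.56 CPM lay within the range of the others, 5.32 to 7.51 CPM. The mitochondrial large rRNA, *mt:lrRNA*, was at 1958 CPM against 5401 to 7853 CPM, and median deviations were -0.53 for cytosolic ribosomal proteins, -0.37 for nuclear-encoded respiratory subunits and -0.20 for the proteasome. The part of length and of this library in the genotype comparison was not tested beyond leaving the library out.

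By role, the large subunit genes of the peptidyl transferase centre, where peptide bonds form, gave values above 0 for 4 of 4 members. The large subunit as a whole had 46 of 47 above 0. *mRpL2* stood at 74.2, 74.2, 62.7 and 58.5 CPM in ft null and 54.8 and 44.1 in w1118, a log2 fold change of 0.45, with an SE of 0.151 and an adjusted p of 0.149 in edgeR. The ft null values all lay above both controls, although the lowest was close to the higher control. *mRpL3* was 0.15, *mRpL16* 0.29 and *mRpL27* 0.41 on the log2 scale, and the median of the 4 was 0.35, or 0.11 without w1118 replicate 2.

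The stalk, which recruits translation factors, is formed by *mRpL10*, *mRpL11* and *mRpL12*. *mRpL12*, which is present in several copies per ribosome, was 66.3, 63.9, 52.8 and 54.3 CPM in ft null and 56.1 and 38.1 in w1118, so the groups overlapped. The stalk median was 0.12 on the log2 scale and turned to -0.10 without w1118 replicate 2. The genes around the exit tunnel (*mRpL4*, *mRpL22*, *mRpL23*, *mRpL24* and *mRpL45*) had 5 of 5 values above 0, against 46 of 47 in the large subunit. Their median was 0.27, which was -0.00 without w1118 replicate 2. Of these 5 genes, *mRpL4* varied most within ft null, at 42.5, 33.5, 31.8 and 27.6 CPM. *mRpL24* is described with the 9 genes of lowest p.

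Insects and mammals carry several genes for protein S18, and *Drosophila* has *mRpS18A*, *mRpS18B* and *mRpS18C*. Their log2 fold changes were 0.24, 0.35 and 0.20, with a median of -0.04 without w1118 replicate 2. Their levels differed more than their fold changes, at 66.2, 26.4 and 26.6 CPM per kb. Proteins with a counterpart in bacteria and proteins that mitochondria added were also set side by side. In the large subunit, 29 of 29 genes with a bacterial counterpart and 17 of 18 without one were above 0 (medians 0.23 and 0.15). In the small subunit the counts were 14 of 16 and 7 of 10 (medians 0.20 and 0.05). Without w1118 replicate 2 the 4 medians were 0.01, -0.05, -0.06 and -0.09. None of these groups was tested against another.

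The 9 genes with an unadjusted p under 0.05 are the ones closest to a difference. All 4 ft null values lay above both controls for 9 of the 73 genes (12.3%, against 15.1% of all genes) and below both for 1 (1.37%, against 16.4%). *mRpL48* (2L from 1710462 to 1711465), a large subunit protein without a bacterial counterpart, was the lower one, with 31.6, 32.3, 28.5 and 27.1 CPM in ft null and 49.7 and 37.7 CPM in w1118. The groups did not overlap, and the log2 fold change was -0.55, with an SE of 0.142 and an adjusted p of 0.0741 in edgeR. It was -0.73 without w1118 replicate 2 (edgeR adjusted p = 0.0695) and -0.34 without w1118 replicate 1 (edgeR adjusted p = 0.246), where the list as a whole stood at -0.05 and 0.49. *mRpL48* shares 20.8% of its exon bases with *frtz* on the opposite strand, whose log2 fold change was -0.20 (edgeR adjusted p = 0.335).

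*mRpL24* (2L from 4944256 to 4945361), at the exit tunnel, was the highest-ranked gene in the other direction. It stood at 45.5, 50.6, 49.8 and 47.3 CPM in ft null and at 38.1 and 27.3 CPM in w1118. All ft null values exceeded both controls, and the log2 fold change was 0.56, with an SE of 0.149 and an adjusted p of 0.0795 in edgeR. The value was 0.35 without w1118 replicate 2 (edgeR adjusted p = 0.250) and 0.82 without w1118 replicate 1 (edgeR adjusted p = 0.0448). *mRpL24* lies 0.722 Mb and *mRpL48* 2.49 Mb from *ft* on the same arm. The member nearest to *ft*, *mRpL27* at 0.237 Mb, had a log2 fold change of 0.41 (edgeR adjusted p = 0.334). *mRpL28* and *mRpS2*, at 0.752 and 0.628 Mb, had log2 fold changes of 0.06 and 0.08.

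The other 7 were higher in ft null. *mRpS14* stood at 20.5, 19.8, 14.2 and 16.7 CPM against 13.7 and 8.62 CPM (log2 fold change 0.66, SE 0.232) and shares 35.8% of its exon bases with other genes, 255 bases with *Naa15-16* and 30 with *CG32533*. *mRpS28*, a small subunit protein, stood at 29.1, 32.9, 30.5 and 26.5 CPM against 24.6 and 16.8 CPM (0.52, SE 0.175). In both genes every ft null value exceeded both controls, and w1118 replicate 2 was the lowest library. *mRpL18*, *mRpL1*, *mRpL20* and *mRpS16* had log2 fold changes of 0.47, 0.33, 0.51 and 0.45, with the same order of groups and libraries, and *mRpL2* was given above. Without w1118 replicate 2, these 7 ranged from 0.23 (*mRpL20* and *mRpS16*) to 0.37 (*mRpS14*), and edgeR's adjusted p with all libraries ran from 0.148 to 0.248.

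**Figure D5:**
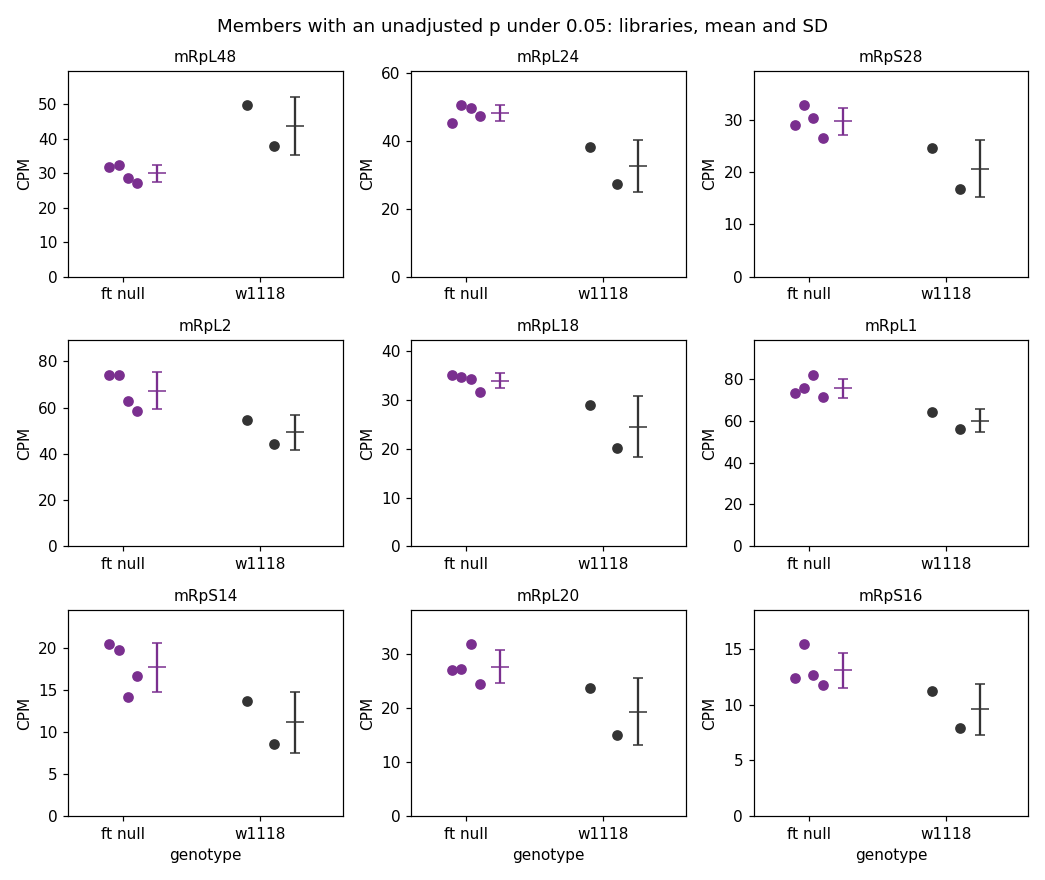
CPM in each library for the 9 genes with an unadjusted p under 0.05, 1 panel per gene with its own axis, ft null and w1118 in separate colours, with the mean and SD of each group beside its points. In *mRpL48* both controls lie above the 4 ft null libraries, and in the other 8 they lie below them, with w1118 replicate 2 lowest.

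Some of the largest estimates came with wide errors. *mRpL42*, *mRpS21* and *mRpL33* had log2 fold changes of 0.57, 0.56 and 0.55 without an unadjusted p under 0.05. *mRpL42* stood at 15.5, 17.7, 14.8 and 13.3 CPM in ft null and 13.9 and 6.65 CPM in w1118. *mRpS21* stood at 4.75, 7.67, 5.70 and 4.51 CPM against 5.36 and 2.20, and *mRpL33* at 7.41, 6.30, 5.44 and 5.31 CPM against 5.65 and 2.61. In each, w1118 replicate 1 lay within the ft null range and replicate 2 far below it. *mRpL55*, at 14.3, 17.1, 15.5 and 16.1 CPM against 19.2 and 9.58, had controls on either side of all mutants and a log2 fold change of 0.12. In contrast *mRpS5* stood at 106, 125, 120 and 134 CPM against 148 and 129 CPM, a log2 fold change of -0.19 with overlapping groups.

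Other genes of mitochondrial gene expression were counted from lists of the pathway. A list of proteins of this ribosome with other symbols had 4 of 4 genes above 0 and 0 called. The annotation used here gives positions and lengths but no roles, and whether *CG4679*, 1 of the 4, belongs in the list is uncertain. *tko*, the S12 protein, stood at 60.3, 56.3, 45.9 and 48.1 CPM against 49.2 and 34.3 (0.33), *bonsai*, the S15 protein, was at 0.03, *CG6094* at 0.27 and *CG4679* at 0.15 on the log2 scale. *bonsai* turned to -0.01 when library totals alone were used for scaling. Of 10 translation factors 8 were above 0 and 0 were called, with the elongation factor gene *mEFTu1* at 274 CPM in ft null and 249 in w1118.

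Among 16 genes listed as mitochondrial aminoacyl-tRNA synthetases, the enzymes that charge tRNAs, 7 were above 0. A fall was called for 1, against 2.15% of all genes tested. The list includes *Slimp*, a seryl-tRNA synthetase-like protein that does not charge tRNA, at -0.47 (edgeR adjusted p = 0.211). *CysRS-m* stood at 9.93, 10.8, 10.8 and 11.6 CPM against 19.6 and 16.2 CPM, without overlap (log2 fold change -0.73 with an SE of 0.142; edgeR, adjusted p = 0.0307). Leaving out ft null replicate 2, ft null replicate 3 or either control ended the call (edgeR adjusted p up to 0.125). Among 14 genes of mitochondrial transcription and RNA handling, 7 were above 0 and 1 fell, against 2.15% of all genes tested. *bsf*, an RNA-binding protein of mitochondrial messenger RNAs, stood at 213, 208, 221 and 213 CPM against 342 and 400 CPM (log2 fold change -0.79 with an SE of 0.109; edgeR, adjusted p = 0.00667). The groups were far apart, and the call held without any single library. In *bsf* w1118 replicate 2 was the highest library, unlike in the ribosomal protein genes.

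Of 13 mitochondrially encoded protein genes, 8 could be tested and 1 rose, against 2.15% of all genes tested. *mt:CoIII*, a subunit of cytochrome c oxidase, stood at 26.7, 30.3, 18.7 and 18.8 CPM against 6.27 and 2.84 CPM (log2 fold change 2.35 with an SE of 0.359; edgeR, adjusted p = 0.0111). The groups did not overlap, but the call was lost without w1118 replicate 2 (log2 fold change 1.92, edgeR adjusted p = 0.0685). Among nuclear-encoded respiratory subunits 58 of 66 were above 0 (median 0.20) and 1 rose, against 2.15% of all genes tested. It was the complex I gene *ND-13B* (0.97, edgeR adjusted p = 0.0084). That call was lost without either control (edgeR adjusted p up to 0.0725). Among cytosolic ribosomal proteins 86 of 88 were above 0 (median 0.31) and 2 rose, against 2.15% of all genes tested. These were *RpS5b* (1.41, edgeR adjusted p = 0.0249) and *RpS15Ab* (0.77, edgeR adjusted p = 0.0346). Both calls were lost without w1118 replicate 2 or ft null replicate 2, that of *RpS5b* also without w1118 replicate 1, and that of *RpS15Ab* also without ft null replicate 3 or 4 (edgeR adjusted p up to 0.163). Of 3 genes of mitochondrial DNA maintenance 0 were called, with *tam*, the DNA polymerase, at -0.12. The proteasome list, a set outside mitochondria, had 29 of 35 above 0 (median 0.11) and 0 called. In the respiratory, cytosolic ribosomal and proteasome lists w1118 replicate 2 was also the library in which most genes were lowest (57 of 66, 86 of 88 and 25 of 35), as for 70 of the 73 mitochondrial ribosomal protein genes. Of all 11542 genes tested, 3047 were lowest in w1118 replicate 2 and 3100 in ft null replicate 1. These lists were not tested against each other.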

How the data were processed

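The deposited table gives estimated counts for each gene in each library, with no normalization by the authors. FastQC 0.10, Trimmomatic 0.33, Salmon 1.80 and edgeR with build dm6 are named in the submitters' processing notes. Annotation release and options: not given in the sources used here. Before testing, these estimates were rounded to whole numbers. Genes kept by filterByExpr (11542 of 17208) were scaled by TMM and tested with edgeR's quasi-likelihood test (edgeR 4.0.16, R 4.3.3) with genotype as the one term, with Benjamini-Hochberg adjustment over all genes tested and calls made under 0.05. Deviations use log2 CPM with a prior count of 2. Alternatives were other scalings and filters, DESeq2 1.42.0, limma voom (limma 3.58.1), each library left out, and a replicate block.

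Positions and transcript lengths came from the Ensembl annotation of the dm6 assembly. Of the table's genes, 17083 matched by identifier, 47 by a unique symbol (*mRpS5* among them) and 78 had no position. Per the labels' protocols, 10 ng of RNA entered the SMARTer Ultra Low kit, which does not mark strand, and cDNA was amplified for 12 to 15 cycles.

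The members and lists were chosen with earlier results of these data known. Members given by name are those with an unadjusted p under 0.05, the 5 largest log2 fold changes in each direction, the 4 highest and 4 lowest levels per kb, the 3 widest ranges within ft null, and members of known role. From other lists, called genes or the most abundant gene were named. Other genes given by name, such as *mRpS2*, *mRpS33*, *Slimp*, *mt:CoII* and genes that overlap members, were chosen after their values were seen. Promoter motifs were not analysed here.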

Additional observations from a re-analysis of the deposited data

Results flagged for a closer look

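*mRpL3*, a protein next to the peptidyl transferase centre, had 1 ft null library away from the other 3. It stood at 68.4, 68.9, 68.3 and 61.1 CPM in ft null replicates 1 to 4, so the gap below replicates 1 to 3 was 0.928 of the whole range, above Dixon's 95% critical value for 4 libraries. Chance flags about 1 in 20 groups, and 53 groups were examined. These did not cover all 73 members, and *mRpL3* was not the only member with 1 ft null library apart. *mRpL37* stood at 54.0, 52.8, 62.3 and 53.4 CPM and *mRpS31* at 63.4, 71.2, 64.6 and 64.3 CPM in ft null replicates 1 to 4.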

How the results depend on the processing

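Genes called numbered 496, 949 with DESeq2, 248 from replicates 1 and 2 without the replicate block and 493 with it, and 173 to 806 with 1 library left out. Members called higher were 0, 1 with DESeq2 and 0 to 1 with 1 library left out; members called lower were 0, and 1 with DESeq2. Leaving out 1 library gave 26 to 70 members above 0 and median log2 fold changes of -0.047 to 0.49 (large subunit -0.025 to 0.47, small -0.064 to 0.50), the lowest without w1118 replicate 2 and the highest without w1118 replicate 1. The other scalings gave 65 to 67 above 0. With the replicate block the members' median was 0.21, and 0.19 on the same libraries without it. The labels link same-numbered libraries only by their number. Deviations of the same-numbered libraries had correlations of 0.153 and -0.0407. With 2 controls the deviations of one mirror those of the other, so these values cannot decide whether libraries were paired. On the 4 libraries of replicates 1 and 2, *ft*, *CysRS-m* and *bsf* were not called with the block (edgeR adjusted p = 0.0868, 0.0883 and 0.0606) or without it (0.115, 0.130 and 0.0721). Levels per kb of coding length were 58.3 (large) and 58.0 (small). With library totals alone, *bonsai* was -0.012 and *Rpn6*, a proteasome gene, -0.030. Among genes chosen by the naming rule, with 1 library left out, log2 fold changes that changed sign ran from -0.011 to 0.042 (*Rpn6*), -0.13 to 0.42 (*mRpL10*), -0.10 to 0.36 (*mRpL11*), -0.018 to 0.65 (*mRpL23*), -0.018 to 0.14 (*mRpL28*), -0.029 to 0.37 (*mRpL3*), -0.11 to 0.40 (*mRpL4*), -0.074 to 0.28 (*mRpL44*), -0.0028 to 0.17 (*mRpL45*), -0.28 to 0.72 (*mRpL55*), -0.037 to 0.59 (*mRpS18A*), -0.11 to 0.64 (*mRpS18C*), -0.035 to 0.64 (*mRpS24*), -0.22 to 0.21 (*mRpS26*), -0.061 to 0.49 (*mRpS7*), -0.26 to 0.11 (*mRpS9*) and -0.20 to 1.79 (*mt:lrRNA*). Of 780 values of these named genes under alternatives, 721 kept direction and side of the threshold. The cause of these changes was not tested. Promoter motifs were not run.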

Other observations

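*mRpL53* lies wholly within exons of *CG33155* and shares 33 bases with *AGO1*, which fell from 361 CPM in w1118 to 142 CPM in ft null (log2 fold change -1.35, edgeR adjusted p = 0.000824). Values were looked up for 37 opposite-strand and 3 same-strand pairs of a member and a gene sharing its exon bases. *AGO1* was the 1 called gene among these partners, against 4.3% of all genes tested. The pairs leave out the overlaps of *mRpL2* with *Ufd1*, *mRpL24* with *synr*, *mRpS22* with *Boh1* and *mRpS23* with *Polr2C*. They also leave out that of *mRpS24* with *TBC1d7* (55.3% of the exon bases of *mRpS24*). In all, 43 of the 73 members share exon bases with another gene, and 8 share over 20% of theirs. By chromosome arm, the median log2 fold change of members was 0.23 on X, 0.10 on 2L, 0.30 on 2R, 0.16 on 3L and 0.14 on 3R. The medians of all genes tested were 0.025, 0.016, 0.009, 0.004 and 0.014 on the same arms. All these values include w1118 replicate 2, and the arms were not tested against each other.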
